A study of Homo sapiens with 51 samples.

Results

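The genes described are 10 of the S100 family of calcium-binding proteins, S100A2, S100A4, S100A6, S100A8, S100A9, S100A10, S100A11, S100A14, S100A16 and S100P. They were taken by symbol from a table of 25421 gene symbols, and all 10 had a row. S100 proteins are small EF-hand proteins, mostly dimers. Most, but not all, change shape on binding calcium and then attach to target proteins such as annexins, tropomyosin and myosin. Some are also secreted and act on receptors, among them the receptor for advanced glycation end products (AGER) and TLR4. In pancreatic ductal adenocarcinoma several members, S100P, S100A4, S100A6 and S100A2 among them, have long been studied as tumour markers.

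The counts came from 51 PLATE-seq libraries, a method that barcodes cDNA from the 3′ end of transcripts well by well before pooling, of 5 human pancreatic ductal adenocarcinoma (PDA) cell lines. There were 5 groups of 3 libraries in each of KP4, PANC1 and PK45H: untreated cells, and cells given lentivirus for mCherry (a fluorescent protein, the control), OVOL2 (a zinc-finger transcription factor known for repressing mesenchymal genes such as ZEB1), mCherry together with M2rtTA, or OVOL2 together with M2rtTA. M2rtTA is a transactivator of tetracycline-inducible promoters. HPAFII and PATU8988S had 3 untreated libraries each. Virus was added at a multiplicity of infection of 2 with 8 µg/ml polybrene, and the next day brought 2.5 µg/ml puromycin and 0.6 µg/ml doxycycline, so that every transduced group, mCherry included, carried both drugs. RNA was taken after 6 days of culture. Each line is a single established line, the promoter of the open reading frame is not named in the labels, and nothing says that untreated triplicates were separate cultures, so p-values measure the spread between these libraries, part of which may be technical.

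Library totals were 1165399 to 7490556 counts, of which the 10 members took 0.140% to 0.720%. The lowest total was that of HPAFII replicate 2, in which the 40 genes highest in HPAFII had a median of 0.349 times their level in its 2 mates, and differences between the untreated lines are also given without it. The OVOL2 transcript did not differ detectably between OVOL2 and mCherry libraries without M2rtTA (log2 fold change over the 3 lines -0.09, SE 0.46, edgeR adjusted p = 0.93). With M2rtTA it was 2.15 higher on the log2 scale (SE 0.44, adjusted p = 0.00021). Its level stayed low there, at means of 4.99, 2.15 and 4.53 CPM in KP4, PANC1 and PK45H. Controls with M2rtTA had 0.539, 0.852 and 1.11 CPM. Those OVOL2 libraries had 6 to 62 counts of it, and 1 KP4 library reached 10.5 CPM. Untreated PATU8988S had 23.3 CPM and untreated HPAFII 5.24 CPM. Because no difference was detected without M2rtTA, libraries of that arm are called by their label. A 3′-end method need not read an open reading frame that lacks its own 3′ untranslated end, but whether this applies here was not tested. In that arm, over the 3 lines, 3 of the mesenchymal markers VIM, ZEB1, CDH2 and FN1 were lower and 0 higher at an edgeR adjusted p under 0.05. Of all genes 18.1% passed that threshold in either direction. Of the 7 ductal epithelial markers (KRT7, KRT8, KRT18, KRT19, EPCAM, CDH1, MUC1), none was at the floor in any group, where the floor means 3 counts or fewer in all 3 libraries of a group.

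Levels are CPM, counts per library total on a common scale with TMM factors, a change is a log2 ratio of 2 groups given with its standard error (SE) by edgeR's quasi-likelihood test, and a change was called at a Benjamini-Hochberg adjusted p under 0.05 over all genes tested. S100A8 and S100A9 were too low for any test, and S100A14 was too low in the fits of KP4 and of PANC1. The other 7 members were tested in each fit. On the reference genome 9 members lie on chromosome 1 within 1633.4 kb, from S100A10 at one end to S100A14 at the other, and S100P lies alone on chromosome 4. These positions are from RefSeq. By the gene spans of GENCODE, another annotation, S100A4 shares 2044 bases with S100A3 on the same strand. S100A6 and S100A11 share 517 and 10269 bases with an antisense gene by those spans. S100A11 covers only 4499 bases in RefSeq, so the last overlap depends on the annotation. The counts of these 3 members carry an uncertainty that strand or transcript assignment could set. S100A3 itself did not exceed a group mean of 3.29 CPM.

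The 4 members whose changes carried the results are shown by the 250 bases before the first listed transcription start (RefSeq, GRCh38.p14, all on the minus strand of chromosome 1, printed 5′ to 3′). Capitals mark matches to 3 motifs searched on both strands: CCGTTA, the core of OVO-type sites, CAGGTG, the E-box bound by ZEB and SNAI factors, and TGACTCA, an AP-1 site. The motifs do not overlap one another in these windows. S100A16 fell with OVOL2 in PANC1 and PK45H, S100A4 fell in PANC1 in both arms and in PK45H fell without and rose with M2rtTA, S100A2 rose with M2rtTA in KP4 and in both arms in PK45H, and S100A11 rose in KP4 without M2rtTA. Their windows were chr1:153613138-153613387 for S100A16, chr1:153545807-153546056 for S100A4, chr1:153565845-153566094 for S100A2 and chr1:152037005-152037254 for S100A11.
S100A16: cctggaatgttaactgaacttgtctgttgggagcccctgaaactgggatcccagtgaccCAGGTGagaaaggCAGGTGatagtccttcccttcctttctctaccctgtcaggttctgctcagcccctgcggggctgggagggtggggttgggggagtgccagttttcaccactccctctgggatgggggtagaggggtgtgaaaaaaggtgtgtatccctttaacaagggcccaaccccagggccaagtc
S100A4: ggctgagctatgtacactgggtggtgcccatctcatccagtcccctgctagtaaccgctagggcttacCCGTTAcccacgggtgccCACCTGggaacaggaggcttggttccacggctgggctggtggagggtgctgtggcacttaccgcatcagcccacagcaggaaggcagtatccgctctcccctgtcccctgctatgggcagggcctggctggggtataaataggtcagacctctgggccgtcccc
S100A2: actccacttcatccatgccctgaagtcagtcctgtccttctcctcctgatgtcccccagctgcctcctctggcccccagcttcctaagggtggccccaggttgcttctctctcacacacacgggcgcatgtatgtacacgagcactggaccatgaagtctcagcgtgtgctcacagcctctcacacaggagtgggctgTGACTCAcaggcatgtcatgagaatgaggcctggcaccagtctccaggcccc
S100A11: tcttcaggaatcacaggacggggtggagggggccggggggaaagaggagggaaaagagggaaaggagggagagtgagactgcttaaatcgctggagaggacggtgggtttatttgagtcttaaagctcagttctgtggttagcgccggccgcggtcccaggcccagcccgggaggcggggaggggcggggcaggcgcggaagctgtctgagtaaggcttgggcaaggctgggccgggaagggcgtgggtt

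The S100A16 window held CAGGTG at 191 and 178 bases before the start. The S100A4 window held CCGTTA at 182 bases and, as its reverse complement CACCTG, the E-box at 164 bases before the start. It was the only member window with CCGTTA, which occurred in 2.52% of 27305 windows of that length, 1 per gene. The S100A2 window held TGACTCA at 52 bases before the start, a motif found in 4.16% of windows and in no other member. The E-box occurred in 6 of 10 member windows against 17.5% of all windows, the others being S100A8, S100A9, S100A14 and S100P. S100A11, S100A6 and S100A10 had none of the 3 motifs there. These are matches of letters only.

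S100A16, a widely expressed member found in epithelia, was the most deeply lowered. In PK45H it stood at 143, 137 and 157 CPM in the 3 mCherry libraries and at 45.1, 57.3 and 53.8 CPM in the OVOL2 libraries. With M2rtTA it stood at 154, 154 and 161 CPM against 42.5, 45.4 and 38.2 CPM. Every OVOL2 library was below every mCherry library, in both arms. The falls were -1.51 (SE 0.13, adjusted p = 8.9e-06) and -1.89 (SE 0.13, adjusted p = 1.5e-06).

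PANC1 showed the same direction for S100A16 from a lower start. The mCherry libraries had 29.1, 37.8 and 35.5 CPM and the OVOL2 libraries 9.68, 11.5 and 9.67 CPM. With M2rtTA the values were 41.4, 36.5 and 27.3 CPM against 9.52, 7.32 and 11.3 CPM, again without overlap. The fall was 3.29-fold without M2rtTA (adjusted p = 0.00032) and 3.68-fold with it (adjusted p = 4.9e-05). KP4 began at 6.60 ± 1.96 CPM (SD, n = 3) in mCherry and 4.29 ± 0.199 CPM in mCherry with M2rtTA. Its OVOL2 libraries had 5.46 ± 0.689 CPM, and those with M2rtTA 7.27 ± 1.72 CPM, the latter all above their controls, and neither difference passed the test (-0.27, SE 0.30, adjusted p = 0.7, and 0.77, SE 0.31, adjusted p = 0.091). After thinning to the smallest library the latter passed (0.95, adjusted p = 0.023). The OVOL2 effect on S100A16 differed between the 3 lines in both arms (test with 2 degrees of freedom, adjusted p = 0.0078 and 1.5e-07).

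S100A4, which binds non-muscle myosin and is known from motile and mesenchymal cells, moved in opposite directions in the 2 arms of PK45H. Without M2rtTA it fell from 104, 114 and 144 CPM in mCherry to 65.0, 71.8 and 67.5 CPM in OVOL2 libraries (-0.85, SE 0.15, adjusted p = 0.0028). With M2rtTA it rose from 205, 193 and 171 CPM to 441, 332 and 328 CPM (0.96, SE 0.15, adjusted p = 0.00068). The groups did not overlap in either arm. The difference between the 2 effects was 1.81 (SE 0.21, adjusted p = 0.0011).

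In PANC1, S100A4 fell in both arms. It stood at 109, 106 and 135 CPM in mCherry against 41.4, 31.2 and 42.9 CPM in OVOL2 libraries, a 3.00-fold fall (-1.59, SE 0.16, adjusted p = 7.4e-05). With M2rtTA it stood at 127, 109 and 123 CPM against 64.9, 90.9 and 79.0 CPM (-0.58, SE 0.16, adjusted p = 0.028). This second call was lost without 4 single libraries in turn, with adjusted p up to 0.11 when mCherry + M2rtTA replicate 1 was left out, and under 3 other settings. In KP4 the S100A4 groups overlapped, with means between 13.2 and 18.8 CPM over the 4 transduced groups, and no test passed. The OVOL2 effect on S100A4 differed between lines without M2rtTA (adjusted p = 6.6e-06) and with it (adjusted p = 0.00019).

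S100A2, a nuclear member known from basal and squamous epithelium and from aggressive PDA, rose most. In PK45H it stood at 38.8, 43.5 and 46.7 CPM in mCherry and 99.0, 89.2 and 81.5 CPM in OVOL2 libraries (1.03, SE 0.19, adjusted p = 0.0037). With M2rtTA the values were 43.5, 43.2 and 45.8 CPM against 354, 231 and 232 CPM, a 6.19-fold rise (2.63, SE 0.20, adjusted p = 2e-06). No groups overlapped, and the rise was larger with M2rtTA by 1.59 (SE 0.26, adjusted p = 0.0081). Replicate 1 was the highest of the 3 OVOL2 + M2rtTA libraries in S100A2 and in S100A4, and all 3 were above every other PK45H library in both genes.

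In KP4, S100A2 rose with M2rtTA. The mCherry + M2rtTA libraries had 13.2, 14.8 and 11.9 CPM and the OVOL2 + M2rtTA libraries 26.7, 28.2 and 24.6 CPM (1.00, SE 0.18, adjusted p = 0.0014). Without M2rtTA the groups overlapped at 14.3 ± 3.86 and 15.9 ± 1.65 CPM (0.17, SE 0.18, adjusted p = 0.69). PANC1 had little S100A2, with 7.70 ± 1.64 CPM in mCherry and 3.51 ± 1.97 CPM in OVOL2 libraries, a difference of -1.11 (SE 0.31, adjusted p = 0.056) that rests on 8, 25 and 13 counts in the OVOL2 libraries. It passed with DESeq2 (adjusted p = 0.047) and after thinning (0.045). With M2rtTA its OVOL2 libraries were also below the controls, by 0.30 on the log2 scale with an SE as large (adjusted p = 0.57). The effect on S100A2 differed between lines in both arms (adjusted p = 0.00022 and 2.5e-07). Of the 5 squamous markers looked at (KRT5, KRT6A, KRT14, TP63, DSG3), 2 to 4 were at the floor in each group, and their summed level was 0.680 to 13.2 CPM in single libraries.

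S100A11, which binds annexin A1 and takes part in membrane repair and growth control of epithelial cells, was the member that rose in KP4 without M2rtTA. It stood at 1527, 1183 and 1152 CPM in mCherry and at 2452, 2206 and 2309 CPM in OVOL2 libraries, without overlap (0.86, SE 0.13, adjusted p = 0.0016). With M2rtTA the values were 1206, 1495 and 1155 CPM against 1096, 1277 and 1328 CPM, and the groups overlapped (-0.05, SE 0.13, adjusted p = 0.82). The difference between the arms was -0.91 (SE 0.19, adjusted p = 0.028), and this call was lost without any 1 of 9 of the 12 KP4 libraries compared, with adjusted p up to 0.083. In PANC1 and PK45H the rises without M2rtTA were 0.30 (SE 0.14, adjusted p = 0.24) and 0.15 (SE 0.11, adjusted p = 0.43). The test of a difference between lines without M2rtTA gave adjusted p = 0.064, and 0.027 with DESeq2.

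**Figure D1:**
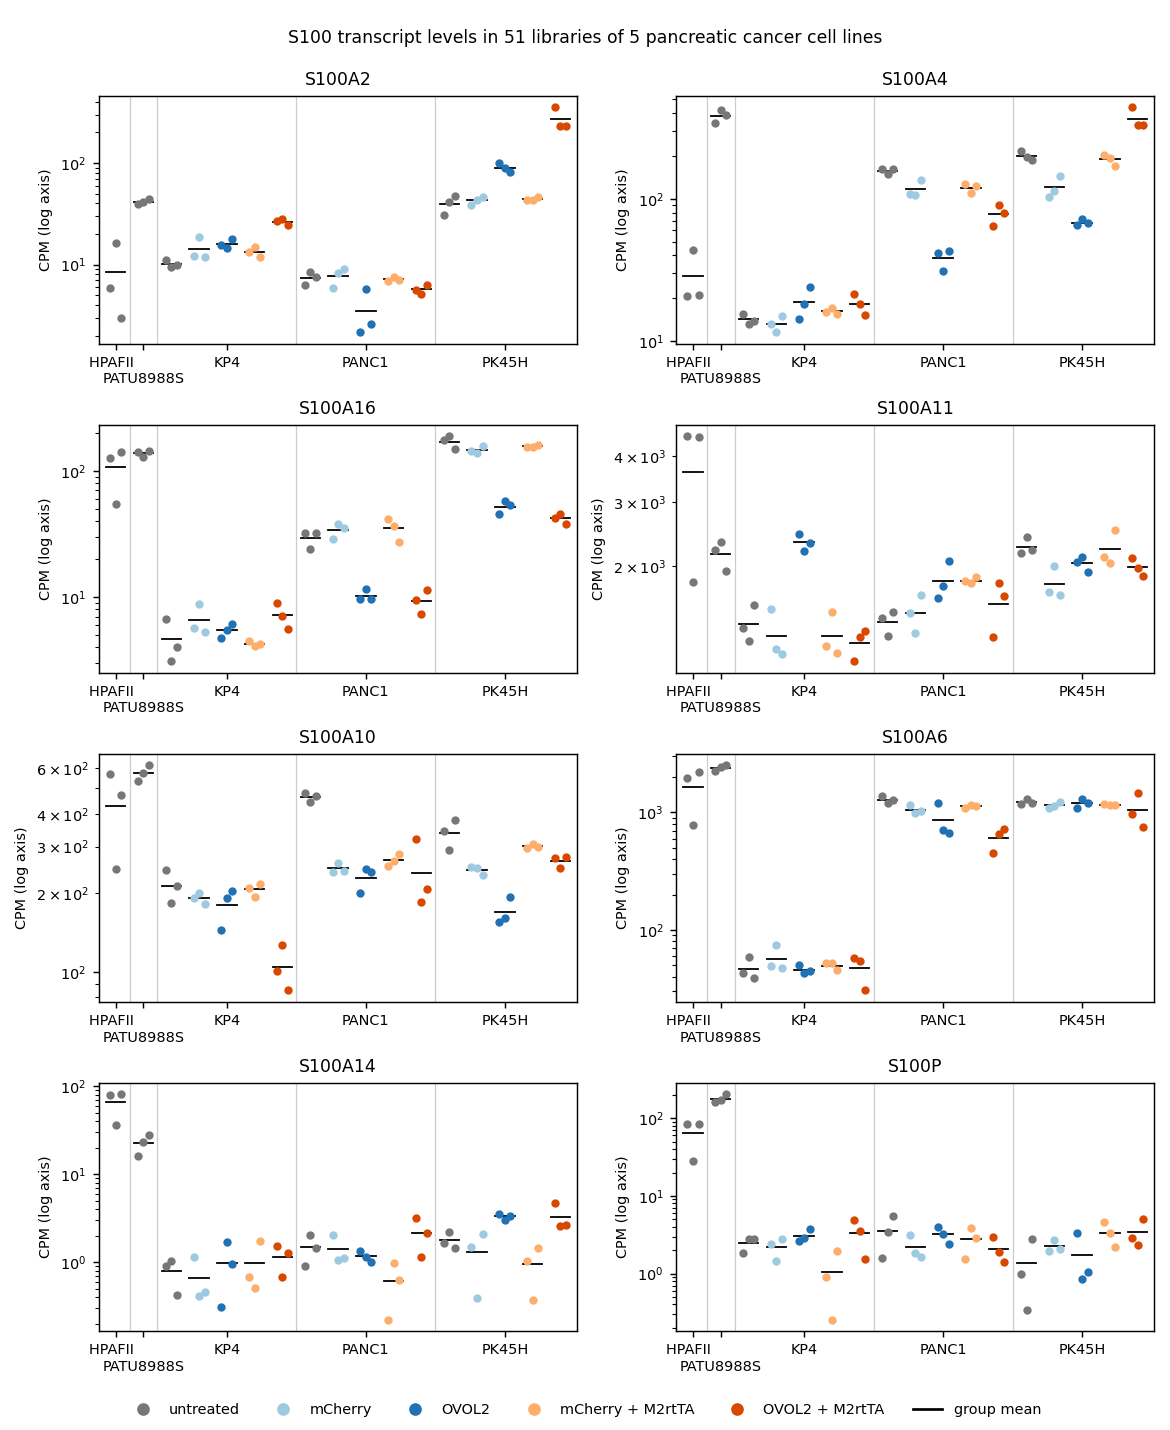
Level of 8 S100 transcripts in CPM (log axis) in each of 51 libraries, grouped by cell line and coloured by treatment, with black bars for the means of 3 libraries. S100A16 in PANC1 and PK45H sits lower in both OVOL2 groups, S100A2 in PK45H reaches 354 CPM with OVOL2 and M2rtTA, and S100A14 and S100P are high in HPAFII and PATU8988S.

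The plot of levels by library also shows the members that moved less. S100A10 is the partner of annexin A2 at the plasma membrane, where the pair binds plasminogen. In KP4 with M2rtTA it stood at 209, 193 and 217 CPM in mCherry and at 101, 126 and 84.9 CPM in OVOL2 libraries (-0.98, SE 0.17, adjusted p = 0.0011). Without M2rtTA the KP4 groups overlapped (-0.09, SE 0.17, adjusted p = 0.86). In PK45H it fell without M2rtTA, from 251, 249 and 235 CPM to 156, 161 and 192 CPM (-0.56, SE 0.13, adjusted p = 0.014), a call lost without OVOL2 replicate 1 (adjusted p = 0.06) or replicate 2, and under 2 other settings (adjusted p up to 0.057). With M2rtTA the PK45H values were 298, 307 and 300 CPM against 273, 248 and 273 CPM (-0.18, SE 0.13, adjusted p = 0.37). The OVOL2 effect on S100A10 differed between lines with M2rtTA (adjusted p = 0.01, but 0.077 without KP4 OVOL2 + M2rtTA replicate 3).

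S100A6 (calcyclin), which binds the ubiquitin-ligase adaptor CACYBP, fell in PANC1 with M2rtTA. It stood at 1085, 1154 and 1138 CPM in mCherry and 450, 655 and 727 CPM in OVOL2 libraries (-0.85, SE 0.21, adjusted p = 0.015). Without OVOL2 + M2rtTA replicate 1, the lowest library, the adjusted p was 0.054. Without M2rtTA the 3 PANC1 OVOL2 libraries spread from 672 to 1211 CPM and overlapped with the control. In PK45H with M2rtTA they spread from 753 to 1452 CPM around controls of 1153 to 1177 CPM. KP4 had 30.5 to 74.1 CPM in all its transduced libraries.

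S100A14, an epithelial member, and S100P, a long-known PDA marker, were low in the 3 transduced lines. S100A14 in PK45H stood at 1.04, 0.371 and 1.45 CPM in mCherry + M2rtTA and at 4.66, 2.59 and 2.61 CPM in OVOL2 + M2rtTA libraries, which are 7, 2 and 10 against 23, 10 and 11 counts (1.74, SE 0.49, adjusted p = 0.026). Leaving out any 1 of 3 libraries ended the call, with adjusted p up to 0.12 without OVOL2 + M2rtTA replicate 1, as did 2 other settings (adjusted p up to 0.064). In PK45H the gene passed the count filter through its OVOL2 groups, where it is high, so being tested was not independent of the rise. Without the filter the edgeR adjusted p was 0.052. Without M2rtTA its OVOL2 libraries were also above the controls, at 3.30 ± 0.257 against 1.31 ± 0.853 CPM (1.20, SE 0.50, adjusted p = 0.16). S100P was called in KP4 with M2rtTA, from 0.898, 0.256 and 1.94 to 4.87, 3.55 and 1.54 CPM (1.63, SE 0.54, adjusted p = 0.045). Those groups overlapped, rested on 4, 1 and 10 against 29, 21 and 6 counts, and the call was lost in 12 of the fits that left out a library, with adjusted p up to 0.17 without OVOL2 + M2rtTA replicate 1. It was also lost without the filter (0.06) and with replicate number as a block (0.055).

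S100A8 and S100A9 form calprotectin, the main calcium-binding protein of neutrophils and monocytes. S100A8 had 4 counts in all 51 libraries together, 48 of them at 0, and every one of the 17 groups was at the floor. S100A9 had 28 counts, with 38 libraries at 0 and 14 groups at the floor. In PK45H it was found in all 3 OVOL2 + M2rtTA libraries, at 0.405 to 0.778 CPM. None of its libraries had more than 4 counts, so a change of either gene could not be tested at this depth. Of 8 myeloid markers 1 to 4 were at the floor in each group, and their summed level was 3.21 to 36.4 CPM in single libraries.

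**Figure D2:**
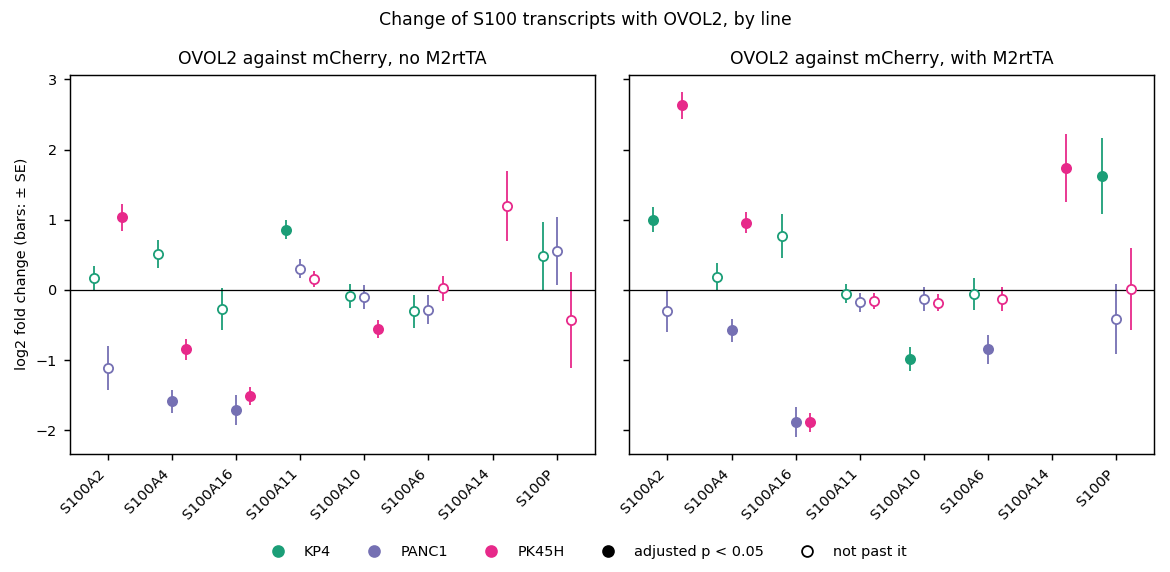
Log2 fold change of OVOL2 against mCherry for 8 S100 transcripts in KP4, PANC1 and PK45H, without (left) and with M2rtTA (right), bars being ± SE and filled points having an adjusted p under 0.05. S100A16 is down in PANC1 and PK45H on both sides (-1.51 to -1.89), S100A4 in PK45H is at -0.85 on the left and 0.96 on the right, and S100A14 was tested in PK45H only.

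Members called in each line are given beside the share of all genes called. In KP4 1 of 7 tested members was called without M2rtTA, where 6.82% of all genes tested were, and 3 with M2rtTA (background 22.4%). In PANC1 2 of 7 were called without M2rtTA (background 5.08%) and 3 with it (13.9%). In PK45H 4 of 8 were called in each arm (8.39% and 15.9%). The difference between the arms was called for 1 member in KP4 (1.43% of genes), for 2 in PK45H (1.6%) and for 0 of 7 in PANC1 (0.136%). In PANC1 2 members had an unadjusted p under 0.05, and DESeq2 called 1, S100A4 (adjusted p = 0.0062, against 0.097 with edgeR). OVOL2 and mCherry libraries with and without M2rtTA are separate libraries, but the test of the arms uses the same ones as the tests within each arm.

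Over the 3 lines together, 3 of 8 members were called without M2rtTA beside 18.1% of genes: S100A11 higher (0.46, SE 0.07, adjusted p = 2.3e-05), S100A16 lower (-1.15, SE 0.12, adjusted p = 6.3e-09) and S100A4 lower (-0.62, SE 0.10, adjusted p = 1.1e-05). With M2rtTA 5 of 8 were called beside 32.9%: S100A2 and S100A14 higher (1.11 and 1.22), and S100A16, S100A10 and S100A6 lower (they fell by 1.00, fell by 0.44 and fell by 0.35). S100A16 was the member called in both arms. S100A10 without M2rtTA missed the threshold (-0.23, SE 0.09, adjusted p = 0.062), passing with DESeq2 (0.048) and under 2 other settings. The median change of the tested members was -0.06 without and 0.03 with M2rtTA, against 0.00 and 0.03 for all genes. The calls of S100A14 and S100A6 with M2rtTA were lost when libraries were thinned to the smallest total (adjusted p = 0.18 and 0.079), and that of S100A6 also without any 1 of 5 libraries, with adjusted p up to 0.094 without KP4 OVOL2 + M2rtTA replicate 3. S100A14 passed the count filter of this fit mainly through OVOL2 libraries, so its being tested was not independent of its rise.

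The OVOL2 effect differed between lines for 3 of 8 members without M2rtTA (2.74% of genes) and for 4 with it (7.56%). M2rtTA changed the mean effect for 3 members (7.72%): S100A2 by 1.06 (SE 0.18, adjusted p = 0.00016), S100A4 by 0.81 (SE 0.14, adjusted p = 0.00017) and S100A11 by -0.59 (SE 0.11, adjusted p = 0.00041). The first 2 were more positive with M2rtTA, and S100A11 less so.

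Some members also differed between mCherry and untreated cells. Virus, polybrene, puromycin and doxycycline came together in the mCherry libraries, so their parts cannot be told apart. S100A10 was lower in mCherry than in untreated cells over the 3 lines (-0.50, SE 0.09, adjusted p = 0.0019). In PANC1 it stood at 479, 444 and 466 CPM untreated and 241, 259 and 243 CPM in mCherry, and the call also held within that line (-0.88, SE 0.17, adjusted p = 0.035). S100A4 was lower as well (-0.42, SE 0.10, adjusted p = 0.039), from 216, 197 and 188 to 104, 114 and 144 CPM in PK45H, where the test within the line gave adjusted p = 0.18. These are 2 of 8 members beside 0.489% of genes. The S100A4 call was lost in 12 of the fits that left out a library, with adjusted p up to 0.089 without KP4 mCherry replicate 2, with replicate number as a block (0.086), without the filter (0.073) and after thinning (0.3).

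M2rtTA without OVOL2 moved 0 of 8 members (0.0602% of genes) with edgeR and with DESeq2, and 2 had an unadjusted p under 0.05. These were S100A4 (0.33, SE 0.10, adjusted p = 0.25) and S100A11 (0.20, SE 0.07, adjusted p = 0.42). In PK45H the mCherry + M2rtTA libraries had 190 ± 17.1 CPM of S100A4 against 120 ± 20.9 CPM in mCherry (adjusted p = 0.21). Against untreated PK45H at 200 ± 14.5 CPM, the OVOL2 group without M2rtTA lay below, at 68.1 ± 3.43 CPM, and the group with M2rtTA above, at 367 ± 64.1 CPM.

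Untreated, the 5 lines differed in all 8 tested members (test with 4 degrees of freedom, adjusted p at most 0.0012, and at most 1.4e-05 without HPAFII replicate 2), beside 57.8% of genes. Set against KP4, PANC1 and PK45H, HPAFII and PATU8988S had 7 of 8 members higher and 0 lower. This count is of set means. S100A4, S100A10 and S100A11 were not called higher with each of the 2 lines alone. S100A16 had its highest mean in PK45H, and S100A6 was far lower in KP4 than in the other 4 lines. Of all genes 34.8% were called and 17.4% were called higher. The median change of the tested members was 1.44 against 0.00 for all genes. Each line is 1 line, so the test speaks of these lines only.

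S100P and S100A14 had the largest differences between the 2 sets of lines (5.57 and 4.89). S100P stood at 162, 170 and 203 CPM in PATU8988S and at 84.2, 28.2 and 83.7 CPM in HPAFII, against 0.337 to 5.47 CPM in the other 3 lines (5.57, SE 0.33, adjusted p = 1.1e-08). PATU8988S was above HPAFII (1.40, SE 0.44, adjusted p = 0.035), a call lost without HPAFII replicate 2 (1.07, SE 0.41, adjusted p = 0.081), and KP4, PANC1 and PK45H did not differ from one another in any pair. S100A14 had the opposite order in the top 2 lines: 79.3, 36.0 and 80.4 CPM in HPAFII and 16.2, 23.1 and 27.5 CPM in PATU8988S (adjusted p = 0.0016 between them), with 0.428 to 2.19 CPM elsewhere. Without HPAFII replicate 2 the set differences were 5.74 for S100P and 5.02 for S100A14, and the S100A14 difference between the top 2 lines kept its call (adjusted p = 0.00015). S100A14 passed the count filter of the untreated fit through HPAFII and PATU8988S, where it is high. Its being tested was therefore not independent of its difference between the sets.

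S100A6 was lowest in KP4, at 46.9 ± 10.2 CPM, below the next line, PK45H with 1230 ± 65.3 CPM, by 4.74 on the log2 scale (SE 0.32, adjusted p = 2.5e-07). PANC1 followed at 1289 ± 89.4 CPM, HPAFII at 1648 ± 762 CPM and PATU8988S at 2405 ± 125 CPM, and no neighbours above KP4 differed beyond the spread. Without HPAFII replicate 2, which left HPAFII at a mean of 2084 CPM, PANC1 was below HPAFII (-0.69, SE 0.15, adjusted p = 0.0035). The S100A6 difference between the sets was 2.25, and 2.42 without that library. S100A16 ran from 4.64 ± 1.90 CPM in KP4 through 29.6 ± 4.69 in PANC1 to HPAFII at 108 ± 46.5, PATU8988S at 138 ± 7.63 and PK45H at 170 ± 20.3 CPM. The first 2 steps passed the test (2.70 and 1.88, adjusted p = 4.8e-05 and 0.00037), and the top 3 lines did not differ in any pair, with or without HPAFII replicate 2. The S100A16 difference between the sets was 2.10, and 2.25 without that library.

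S100A4 differed in 9 of 10 pairs of lines, the exception being PK45H and PANC1. KP4 had 14.2 ± 1.18 CPM, HPAFII 20.7, 43.8 and 21.0 CPM, PANC1 158 ± 6.39, PK45H 200 ± 14.5 and PATU8988S 384 ± 41.4 CPM. The 2 lines of the reference set therefore sat near opposite ends: HPAFII alone was lower than the 3 transduced lines (-1.42, adjusted p = 0.00018) and PATU8988S alone higher (2.32), and the set difference of 0.45 (SE 0.15, adjusted p = 0.034) was 0.23 with adjusted p = 0.059 without HPAFII replicate 2, and 0.41 with adjusted p = 0.065 without the filter. The set call of S100A4 was lost in 10 of the 15 fits that left out a library, with adjusted p up to 0.082 without PATU8988S replicate 2. S100A2 was not called between the sets (0.28, SE 0.25, adjusted p = 0.42), and the difference was -0.10 (adjusted p = 0.69) without HPAFII replicate 2. Its order was PANC1 with 7.43 ± 1.05 CPM, HPAFII with 5.83, 16.4 and 2.97 CPM, KP4 with 10.1 ± 0.787, PK45H with 39.9 ± 8.28 and PATU8988S with 41.6 ± 2.41 CPM, and the lower 3 and the upper 2 lines did not differ among themselves. Without replicate 2 HPAFII had the lowest mean of the 5 lines and was below KP4 (by 1.18, SE 0.29, adjusted p = 0.0068).

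S100A11 was highest in HPAFII at 4538, 1807 and 4520 CPM, replicate 2 being the lowest, then 2260 ± 121 in PK45H, 2163 ± 198 in PATU8988S, 1409 ± 110 in PANC1 and 1391 ± 161 CPM in KP4. Of 10 pairs 4 passed, and 8 without HPAFII replicate 2. S100A10 ran from 213 ± 31.2 CPM in KP4 through 338 ± 43.2 in PK45H, 430 ± 166 in HPAFII and 463 ± 18.0 in PANC1 to 572 ± 39.5 CPM in PATU8988S, and 5 of 10 pairs passed. Without replicate 2 the HPAFII mean of S100A10 was 521 CPM, above that of PANC1, and 7 of 10 pairs passed. The set differences of S100A11 and S100A10 were 0.78 (SE 0.16, adjusted p = 0.0013) and 0.64 (SE 0.15, adjusted p = 0.0037), and 0.93 and 0.77 without HPAFII replicate 2. With PATU8988S alone the call of S100A11 was lost (0.39, adjusted p = 0.14), and with HPAFII alone that of S100A10 (0.44, adjusted p = 0.086).

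Marker levels moved with several of these results. Between the untreated sets all 7 ductal epithelial markers were called higher and 3 of 4 mesenchymal markers (VIM, ZEB1, CDH2) lower in HPAFII and PATU8988S. Of all genes 34.8% were called there and 17.4% were called higher. Summed in single libraries, the ductal list was 4855 to 14524 CPM in those 2 lines and 640 to 3348 CPM in the other 3. Of the myeloid list, 1 of 3 tested markers was higher there, LYZ (3.76, SE 0.46, adjusted p = 1.5e-05). With OVOL2 the 4 mesenchymal markers summed to 82.0 to 114 CPM in PK45H against 233 to 292 CPM in mCherry, and to 172 to 214 against 260 to 271 CPM with M2rtTA. Of these 4 genes, 2 were called lower in PK45H without M2rtTA and 1 with it, beside 8.39% and 15.9% of all genes called. The ductal list in PK45H summed to 4342 to 4732 CPM against 2589 to 2992 CPM in mCherry, and with M2rtTA to 4645 to 4780 CPM against 1856 to 1994 CPM. Over the 3 lines with M2rtTA, 6 of the 7 ductal genes were called higher and MUC1 lower (-1.04, SE 0.23, edgeR adjusted p = 0.00051), beside 32.9% of all genes called.

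In PANC1, where S100A16 and S100A4 fell, the mesenchymal sum was 637 to 730 CPM in OVOL2 and 2635 to 3027 CPM in mCherry libraries, while the ductal sums overlapped at 2324 to 2608 and 2204 to 2644 CPM. With M2rtTA the PANC1 mesenchymal sum was 620 to 754 against 2572 to 2860 CPM. The ductal sum there was 1984 to 2278 with OVOL2 and 2236 to 2553 CPM in the control. Of the 7 ductal genes 2 were called higher and 2 lower, beside 13.9% of all genes called. In KP4 without M2rtTA, where S100A11 rose, the mesenchymal sum was 391 to 394 against 1731 to 1987 CPM and the ductal sum 1060 to 1211 against 762 to 813 CPM. With M2rtTA, where the KP4 groups of S100A11 overlapped, both sums shifted the same way. The mesenchymal sum was 486 to 537 against 1426 to 1722 CPM and the ductal sum 969 to 1075 against 619 to 630 CPM. Of 5 fibroblast markers (DCN, LUM, COL1A1, COL1A2, PDGFRB), 1 or 2 were at the floor in each group, and COL1A1 was called higher with M2rtTA over lines (1.72, SE 0.14, adjusted p = 1.2e-11). Their sum was 42.4 to 52.1 CPM in KP4 OVOL2 + M2rtTA against 12.3 to 24.0 CPM in its control. The part of these markers in the S100 changes was not tested, and in such bulk RNA fewer cells of a type and less RNA per cell cannot be told apart.

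The proteins that S100 members bind were read from the same fits. Of 15 partner genes, 5 were called without M2rtTA (background 18.1%), 2 of them higher, and 8 with it (32.9%), again 2 of them higher, with medians of -0.04 and -0.12. TPM2, a tropomyosin bound by S100A2 and related proteins, fell with M2rtTA by 1.32 (SE 0.12, adjusted p = 7.4e-11). ANXA6, a membrane-binding annexin, fell by 1.33 (SE 0.15, adjusted p = 1e-08), and by 1.57 without M2rtTA (SE 0.15, adjusted p = 1.1e-09). CACYBP, the partner of S100A6, fell by 0.53 with M2rtTA (SE 0.06, adjusted p = 3.8e-09). ANXA11 (0.27, SE 0.06, adjusted p = 0.00086) and EZR, the membrane linker ezrin (0.28, SE 0.09, adjusted p = 0.0093), rose. ANXA2, the partner of S100A10, was lower in both arms (-0.34, adjusted p = 0.01, and -0.64, adjusted p = 2e-06) and ANXA1, the partner of S100A11, with M2rtTA (-0.41, adjusted p = 0.0007). These 2 were named for their members after their values were seen.

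Beside the same backgrounds (18.1% and 32.9%), 1 of 5 receptor genes was called without M2rtTA and 2 with it. ALCAM, an adhesion molecule that binds S100B, fell by 2.07 with M2rtTA (SE 0.10, adjusted p = 2.8e-17), and BSG, basigin, a receptor of S100A9, rose (0.32, SE 0.07, adjusted p = 0.00022). AGER and TLR4 changed by 0.08 (SE 0.41, adjusted p = 0.91) and -0.42 (SE 0.41, adjusted p = 0.48). Of 8 other annexins 6 were tested, and with M2rtTA 3 of the 6 were called (background 32.9%): ANXA8 rose (1.56, SE 0.42, adjusted p = 0.004) while ANXA5 (-1.20, SE 0.08, adjusted p = 2e-13) and ANXA7 (-0.29, SE 0.10, adjusted p = 0.024) fell. Without M2rtTA 1 of the 6 was called (background 18.1%), ANXA5 (-0.91, SE 0.08, adjusted p = 4e-10).

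Of the 10 other S100 genes on the list, 3 were high enough to test over the lines. S100A5 was called higher with M2rtTA (0.97, SE 0.34, adjusted p = 0.025), S100A3 and S100A13 were not, and none of the 3 was called without M2rtTA. Of 7 genes of the fused S100 type, such as filaggrin, 1 was tested (FLG2) and not called in either arm.

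**Figure D3:**
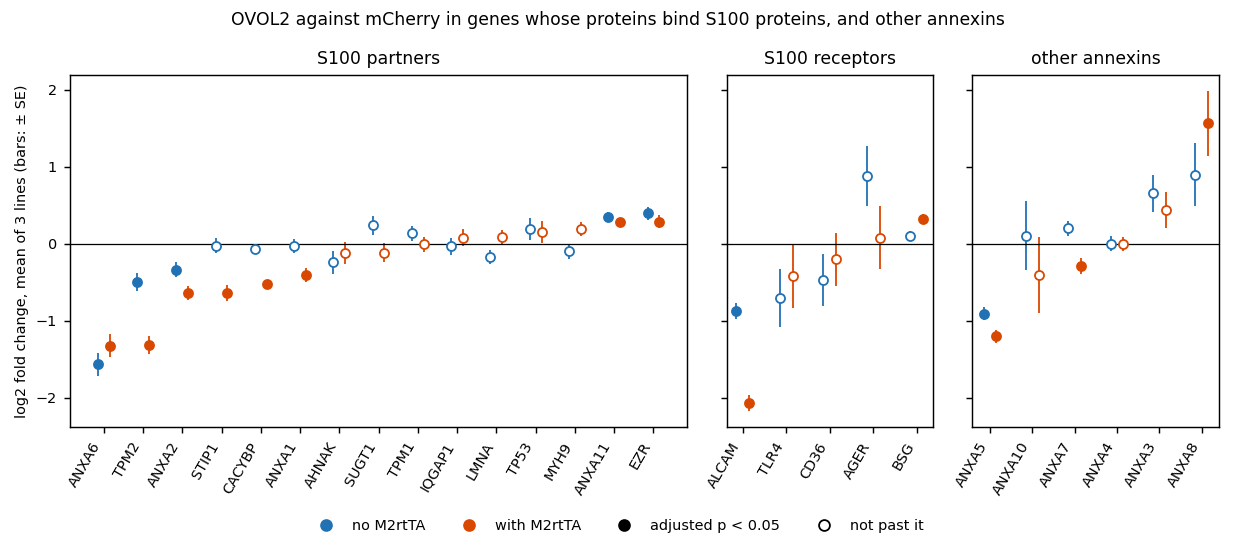
Mean log2 fold change over KP4, PANC1 and PK45H of OVOL2 against mCherry for 15 genes whose proteins bind S100 proteins, 5 receptors and 6 other annexins, without (blue) and with (orange) M2rtTA, bars being ± SE and filled points having an adjusted p under 0.05. ANXA6, TPM2, ALCAM and ANXA5 are lowest with M2rtTA (-1.33, -1.32, -2.07 and -1.20) and ANXA8 is highest (1.56).

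The members did not move as a unit. After line means were removed, Pearson's r between 2 members over the 15 groups of the 3 transduced lines ran from -0.71 (S100A14 with S100A16) to 0.67 (S100A6 with S100A16), with a median of -0.02 over 28 pairs. Groups of a line share that line, and 15 groups share only 3 lines, so these are descriptions.

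Over all 17 group means, the genes most like a member among 10271 genes of at least 5 CPM were found by Pearson's r of log2 CPM. S100A16 was most like ABHD12 (0.97) and SPTBN1 (0.96), and S100A2 most like PTPA (0.91) and MOSPD3 (0.90). S100A4 was most like TIGD5 (0.91) and ME3 (0.91), S100A11 like RCAN3 (0.84) and NTN4 (0.83), and S100A10 like FKBP9 (0.92) and PKM (0.89). S100A6 was most like ANKS6 and GALM (both 0.97), S100A14 like TMC5 (0.98) and ADGRF1 (0.97), and S100P like VSIG1 and KLK11 (both 0.98). After line means were removed, r over 15 groups ranged from 0.16 (S100A6 with ANKS6) to 0.88 (S100A16 with ABHD12). With 5 lines among the 17 groups, these values carry the differences between lines.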

How the data were processed

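PLATE-seq gave gene counts for 51 libraries (100 ng of RNA each), in 17 groups of 3 taken from titles and treatment labels. The deposited values are raw counts per gene symbol, not normalised by the authors. The submitters' processing notes name kallisto 0.44.0 and GRCh38, with no settings. Handling of molecular identifiers is not given in the sources used here, so counts may include amplification copies. Totals are in the report, and limits on counts cover counting error only.

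In R 4.3.3 with edgeR 4.0.16, counts were filtered (filterByExpr by group), scaled (TMM) and tested with the quasi-likelihood F test, two-sided, adjusted over all genes (Benjamini-Hochberg, 0.05). Fits were 45 libraries over the 3 transduced lines, 15 libraries within a line, and 15 untreated libraries. SEs came from the F statistic. The OVOL2 level, as log2(CPM + 1), was also compared by exact permutation within lines (8000 assignments). The scripts were tested on simulated data. Of simulated log2 changes of 1 in OVOL2 with M2rtTA, 91.4% were recovered over lines. Within KP4, PANC1 and PK45H the shares were 28.7%, 27.3% and 19.2%. A change of that size that was not called within a line may therefore have been missed. Of log2 changes of 2, 97% or more were recovered in each fit. Changes were simulated only in genes above the counts of S100A14 and S100P in the transduced lines, with the same spread for all genes. These shares therefore do not cover those members there. No 2 libraries of a group agreed within sampling noise.

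Members, lists and tests were chosen with earlier results of these data known. Named genes are the members, OVOL2, the 2 genes most like each member with at least 5 CPM, and the called genes of each list with M2rtTA, at most 3 per direction by p. Promoter windows, 1 per gene (first listed start), are from RefSeq. Alternatives were DESeq2 1.42.0, RLE scaling, leaving the filter out, a filter on a mean count of 10, only the groups compared, replicate number as a block, thinning, each reference line alone and each library left out. Robust dispersion, the test between arms within a line and the tests of pairs of untreated lines without HPAFII replicate 2 were added after the data were seen.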

Additional observations from a re-analysis of the deposited data

Results flagged for a closer look

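Each of the following is a difference of the OVOL2 effect between lines or between arms that passed edgeR's quasi-likelihood test after Benjamini-Hochberg adjustment. Between KP4, PANC1 and PK45H without M2rtTA, the effect differed for S100A2 (adjusted p = 0.000216, changes of 0.17, -1.11 and 1.03), S100A4 (6.55e-06, changes of 0.52, -1.59 and -0.85) and S100A16 (0.00782, changes of -0.27, -1.72 and -1.51). With M2rtTA it differed for S100A2 (adjusted p = 2.49e-07, changes of 1.00, -0.30 and 2.63), S100A4 (0.000189, changes of 0.18, -0.58 and 0.96), S100A10 (0.0104, changes of -0.98, -0.13 and -0.18) and S100A16 (1.52e-07, changes of 0.77, -1.88 and -1.89).

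Between the arms over the 3 lines, the effect differed for S100A2 (adjusted p = 0.000164), S100A4 (0.000171) and S100A11 (0.000413). Within single lines it differed for S100A11 in KP4 (adjusted p = 0.0285) and for S100A2 (0.00809) and S100A4 (0.00106) in PK45H.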

How the results depend on the processing

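Of 529 values of member changes under other settings, 497 kept their side of the threshold and, where the test had one, their direction. Any DESeq2 value without an adjusted p was counted among these. Of the others, 19 lost the call, 12 gained one and 1 turned. With 1 library left out, the same numbers among 1845 values were 1774, 59, 12 and 0. The value that turned was that of S100A4 between the untreated sets, which was -1.42 with HPAFII alone. Thinning every library to the smallest total left 3 members called over lines with M2rtTA in place of 5. For mCherry against untreated over lines, 1 member in place of 2 was called without a filter, after thinning and with the replicate block, and 1 to 2 with a library left out. For the change of the OVOL2 effect with M2rtTA, the KP4 count of 1 became 2 with DESeq2 and with robust dispersion, 0 with the replicate block, and 0 to 1 with a library left out, and the PANC1 count of 0 became 1 with DESeq2. PANC1 with M2rtTA had 1 to 3 members called with a library left out, 1 being without OVOL2 + M2rtTA replicate 1. The exact permutation test of the OVOL2 level without M2rtTA gave 0.07 (p = 0.7935) and ranged from -0.0925 to 0.171 with a library left out, and with M2rtTA it gave 1.32 (p = 5e-04). The cause of these shifts was not tested.

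Replicate numbers did not pair the libraries: deviations of same-numbered libraries from their group means had correlations of -0.21 to 0.18 (n = 30 pairs per fit), with medians near those of other pairs, so the replicate block was kept as an alternative. Beside the counts above, it ended the calls of S100P in KP4 with M2rtTA (adjusted p = 0.055), S100A11 between the arms in KP4 (0.058) and S100A4 between the untreated sets (0.051). S100A8, S100A9, and S100A14 and S100P outside HPAFII and PATU8988S are limited by counts.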
